A study of Mus musculus with 12 samples.

Results

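TRAV3 is a family of related variable segments of the T cell receptor (TCR) alpha locus, and its use was followed in thymocytes of wild-type (WT) and Chrna9-/- mice. Members were the productive alpha-chain clonotypes whose best-scoring variable segment was a TRAV3 copy, which gave 3205 of 163279 productive clonotypes and 7441 of 341219 reads. A clonotype is 1 rearranged sequence in 1 library, and it is productive where its CDR3, the loop formed at the V to J junction, is in frame and free of stop codons. The study sorted CD4 single-positive (CD4SP) thymocytes, 1000000 cells a sample, and CD8 single-positive (CD8SP) thymocytes, 330000 cells a sample, by CD4 and CD8 alone. WT and Chrna9-/- mice each gave 3 libraries of either cell type, 12 in all, from 2 pairs of males and 1 pair of females. Chrna9 encodes the alpha 9 subunit of nicotinic acetylcholine receptors, and the title of the series sets the genotype comparison in the context of negative selection. The strain, the age and whether the knockout covers the whole body were not stated in the labels. The genotype could not be checked, since these libraries amplify receptor transcripts alone.

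An alpha chain is made by joining 1 TRAV segment to 1 TRAJ segment. Its first and second loops, CDR1 and CDR2, are encoded by the V segment and mostly touch the MHC molecule, while CDR3 mostly touches the peptide. The locus can rearrange more than once on the same chromosome: in the textbook account, early joins use V segments near the J cluster with J segments at its 5' end, and later joins use more distant V and J segments. As a rule, CD4SP thymocytes are selected on class II and CD8SP thymocytes on class I MHC molecules, but the sorted cells can include others, as given below. Out-of-frame and stop-codon joins encode no receptor, so they are not selected through that chain. They were read here from RNA, so their shares also depend on transcript levels, which were not measured.

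The best hit was 1 of 4 copies, and V sequences are shown because the results turn on telling copies apart. In mm10, all lie on chromosome 14. Trav3-1 spans 52580762 to 52581213, Trav3d-3 spans 52972532 to 52973038, Trav3n-3 spans 53283669 to 53284175, Trav3-3 spans 53666005 to 53666506 and Trav3-4 spans 53777071 to 53777576, per the RefSeq gene table. They lie 1574, 1182, 871, 488 and 377 kb before the first J segment, in that order. The sequences below are the most frequent ones in the reads from the start of the mature V region to the residue before CDR3, 267 bases each. Capitals mark the bases at which TRAV3D-3 and TRAV3-3 differ.
TRAV3D-3: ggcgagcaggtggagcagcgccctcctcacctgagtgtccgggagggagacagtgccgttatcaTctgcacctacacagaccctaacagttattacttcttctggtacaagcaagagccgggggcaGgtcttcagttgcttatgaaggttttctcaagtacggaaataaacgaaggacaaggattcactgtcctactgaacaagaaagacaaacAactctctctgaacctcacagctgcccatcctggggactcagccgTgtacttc
TRAV3-3: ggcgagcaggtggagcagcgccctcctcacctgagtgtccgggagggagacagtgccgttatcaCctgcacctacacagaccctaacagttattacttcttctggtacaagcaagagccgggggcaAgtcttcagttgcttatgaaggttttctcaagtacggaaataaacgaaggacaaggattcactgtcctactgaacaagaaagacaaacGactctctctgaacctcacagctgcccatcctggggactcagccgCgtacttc
The pair differed at 4 of 267 bases (98.5% identity), all outside CDR1 and CDR2. TRAV3-1 and TRAV3-4 each differed from TRAV3D-3 at 26 bases (90.3% identity) and from each other at 6 (97.8% identity), and much of that difference fell in the 2 germline loops. Capitals in the next lines mark differences from TRAV3D-3.
TRAV3D-3 CDR1: gaccctaacagttattac
TRAV3-1 and TRAV3-4 CDR1: gacAGtGCcaCtGCttac
TRAV3D-3 CDR2: gttttctcaagtacggaaata
TRAV3-1 CDR2: gtCCtTtcaaAtGTggaCaGa
TRAV3-4 CDR2: gtCttTtcaaAtGTggaCaGa
TRAV3D-3 and TRAV3-3 thus read DPNSYY in CDR1 and VFSSTEI in CDR2. TRAV3-1 and TRAV3-4 read DSATAY in CDR1, with VLSNVDR in CDR2 of TRAV3-1 and VFSNVDR in CDR2 of TRAV3-4.

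TRAV3D-3 carried 5662 of the family's reads (76.1%), and in each of these clonotypes TRAV3N-3 had the same score, so the pair is given as 1 feature. TRAV3-3 carried 1674 reads alone (22.5%) and 1 more in a tie with TRAV3D-3. TRAV3-1 had 76 reads (1.02%) and TRAV3-4 had 28 (0.376%). No clonotype tied with a segment of another family (0 reads), so the family sum does not depend on how ties among its copies were broken.

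Receptor transcripts were amplified from RNA with a SMARTer mouse TCR kit and read on a MiSeq. Libraries held 19847 to 33885 productive alpha-chain reads in 10892 to 15509 clonotypes and 1663 to 3003 out-of-frame or stop reads. The files hold no molecule counts, so a read is not an independent molecule, and a larger share can mean more cells or more RNA per cell, which cannot be told apart. The sort gate can hold other cells. The invariant natural killer T chain (TRAV11 with TRAJ18) made up 5.26% to 8.49% of productive reads in CD4SP libraries and 0.0495% to 0.0983% in CD8SP libraries. The mucosal-associated invariant chain (TRAV1 with TRAJ33) had 3 to 15 reads a library, and delta-chain segments 0.697% to 1.195% of covered reads. Immature or double-positive cells have no TCR marker, and their number was not measured. Nothing in the labels says how the 3 mice of a group relate beyond the pairs, so p-values measure the spread between these libraries.

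Productive TRAV3 joins were more frequent in every CD8SP library than in any CD4SP library. In CD4SP cells the family took 1.32%, 1.25% and 1.17% of productive alpha-chain reads in WT replicates 1 to 3, and 1.46%, 1.30% and 1.13% in Chrna9-/- replicates 1 to 3. In CD8SP cells it took 2.81%, 2.93% and 2.68% in WT and 3.08%, 2.91% and 3.09% in Chrna9-/- replicates. CD4SP and CD8SP libraries of the same genotype and number were taken as 1 mouse, which the labels do not state, and every count of mice rests on that. The mean share was 2.92% ± 0.156 in CD8SP and 1.27% ± 0.116 in CD4SP (SD, n = 6 each), and the ratio within a mouse was 2.31 ± 0.225 (2.11 to 2.73, above 1 in 6 of 6 mice). On the log2 scale the difference was 1.20 (SE 0.057, adjusted p = 1.47e-37, edgeR quasi-likelihood test, Benjamini-Hochberg over 20 families). It was 1.19 without the mouse as a block, 0.95 with each clonotype counted once and 1.10 without the invariant NKT chain.

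**Figure D1:**
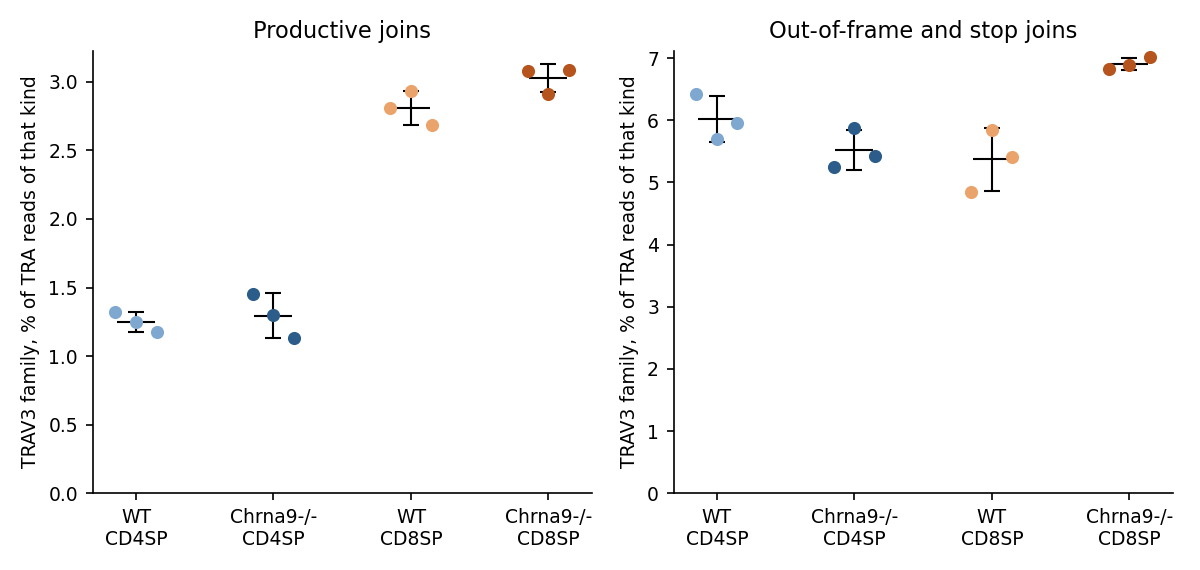
Each point is 1 library, placed by group, with the group mean and SD as bars; the vertical axes give the TRAV3 family as a percent of productive alpha-chain reads (left) and of out-of-frame and stop reads (right). Productive shares run from 1.13% to 1.46% in CD4SP and from 2.68% to 3.09% in CD8SP, whereas the shares on the right overlap between cell types.

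Most families differed between the cell types. Of 20 families tested, 17 passed the threshold of an adjusted p of 0.05 (85%), 10 higher in CD8SP (50%) and 7 lower (35%), with a median of 0.35 over all families. That median was 0.18 with TMM factors, which gave 8 families higher and 8 lower, and 0.09 with DESeq2, which gave 8 higher and 9 lower. TRAV3 kept a difference of 1.03 with TMM factors and 0.93 with DESeq2. Its difference was exceeded in size by TRAV16 (1.65) and, in the other direction, by TRAV11 (-2.96), the V family of the invariant NKT chain. TRAV4 (-1.16) and TRAV17 (-1.02) differed about as much, lower in CD8SP. The nearest families in signed difference were TRAV2 (1.04), TRAV20 (0.81, adjusted p = 0.0512, edgeR) and TRAV1 (0.80). In rank of mean share, TRAV3 was 13th of 22 families in CD4SP and 8th of 22 in CD8SP.

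The same family was far more frequent among joins that encode no receptor, and there the cell types did not differ beyond their spread. TRAV3 took 6.43%, 5.70% and 5.95% of out-of-frame and stop reads in WT CD4SP replicates 1 to 3, 5.25%, 5.88% and 5.42% in Chrna9-/- CD4SP, 4.84%, 5.85% and 5.41% in WT CD8SP and 6.83%, 6.88% and 7.01% in Chrna9-/- CD8SP. The means were 5.77% ± 0.419 in CD4SP and 6.14% ± 0.902 in CD8SP (SD, n = 6 each). The log2 difference was 0.09 (SE 0.120, adjusted p = 0.606, edgeR), with 4 of 6 mice higher in CD8SP, and 6 of 19 families passed in this comparison (31.6%). By mean share of such reads, TRAV3 ranked 6th of 22 families in CD4SP and 4th of 22 in CD8SP. These shares rest on 721 CD4SP and 984 CD8SP reads.

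Seen from the other side, productive reads made up 78.9% of all in-frame, out-of-frame and stop reads of TRAV3, against 92.3% of those of the other TRAV without the invariant NKT chain (means over 6 mice). The share was lower for TRAV3 in 6 of 6 mice (exact two-sided sign-flip permutation test, p = 0.03125, the smallest that 6 mice allow, adjusted p = 0.0375 over 12 measures). Within TRAV3 it was 72.9% ± 2.70 in CD4SP and 84.9% ± 1.45 in CD8SP, higher in CD8SP in 6 of 6 mice (adjusted p = 0.0547 over 14 measures, exact test). In the other TRAV it was higher in CD8SP by 0.0981 percentage points, against 11.98 points in TRAV3 (adjusted p of the difference 0.075, exact test, 6 of 6 mice).

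**Figure D2:**
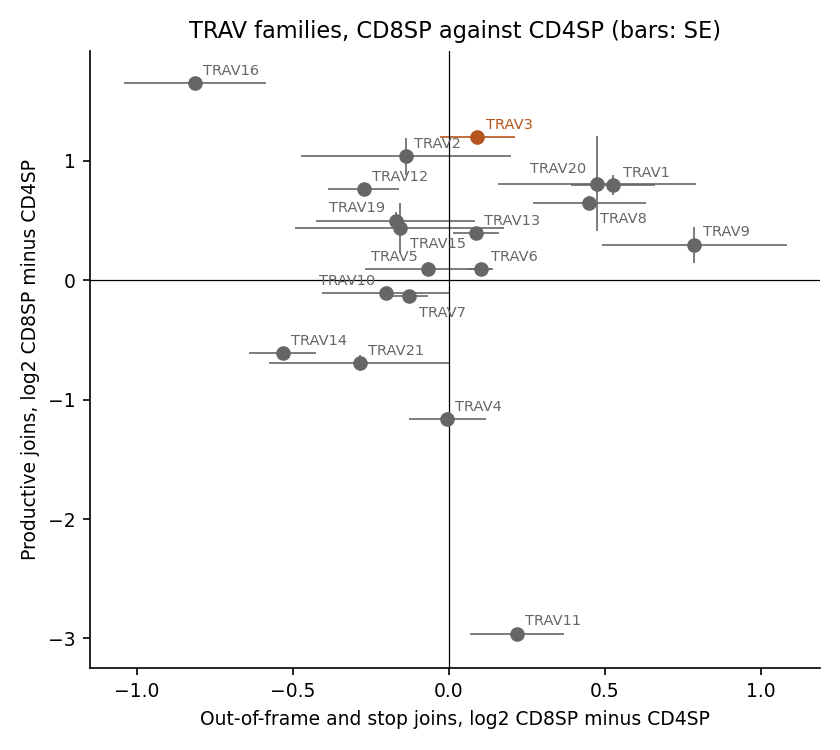
Each point is 1 of the 19 TRAV families tested in both kinds of join; the axes give the log2 difference CD8SP minus CD4SP in the share of out-of-frame and stop reads (horizontal) and of productive reads (vertical), with bars of 1 SE. TRAV3 lies at 0.09 and 1.20, while TRAV16 lies at -0.81 and 1.65.

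Both sets of well-covered copies were higher in CD8SP. TRAV3D-3 with TRAV3N-3 rose from 1.00% ± 0.0854 of productive reads in CD4SP to 2.18% ± 0.174 in CD8SP (log2 difference 1.12, SE 0.064, adjusted p = 1.38e-15, edgeR over 125 V and J segments). TRAV3-3 rose from 0.258% ± 0.0386 to 0.688% ± 0.134 (1.40, SE 0.117, adjusted p = 8.86e-12). By library, TRAV3D-3 with TRAV3N-3 ran from 0.887% to 1.12% in CD4SP and from 1.89% to 2.41% in CD8SP, and TRAV3-3 from 0.206% to 0.321% and from 0.524% to 0.859%. CD4SP and CD8SP libraries overlapped in neither. Of the 125 segments, 98 passed (78.4%), 54 of them higher in CD8SP (43.2%).

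The copies with the other CDR1 and CDR2 were too rare to test. TRAV3-1 had 5, 0 and 3 reads in WT CD4SP, 4, 1 and 0 in Chrna9-/- CD4SP, 14, 7 and 5 in WT CD8SP and 18, 9 and 10 in Chrna9-/- CD8SP. TRAV3-4 had 2, 3 and 1 reads in WT CD4SP, 0, 0 and 1 in Chrna9-/- CD4SP, 1, 4 and 0 in WT CD8SP and 7, 3 and 6 in Chrna9-/- CD8SP. Neither passed the filter on low counts. Trav3d-2, Trav3n-2 and Trav3-2 were the best hit of no productive clonotype, and out-of-frame and stop joins are not given by copy.

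The copies differed in the J segments they joined. This comparison was chosen after the values were seen. TRAV3-3, 488 kb from the J cluster, joined the 5' J segments (TRAJ42 to TRAJ61) in 35.2% ± 4.84 of its reads and the 3' J segments (TRAJ1 to TRAJ21) in 5.26% ± 3.66 (SD over 6 mice). TRAV3D-3 with TRAV3N-3, farther upstream, joined them in 3.14% ± 0.945 and 49.6% ± 2.92. Both differences had the same direction in 6 of 6 mice (exact two-sided sign-flip permutation test, p = 0.03125, unadjusted).

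Of 24 J segments tested between the copies, 21 passed (87.5%), 13 higher in TRAV3-3 (54.2%) and 8 higher in TRAV3D-3 with TRAV3N-3 (33.3%). The filter on low counts favours segments that are frequent in 1 of the copies, so nothing is read from these counts. The differences below are a description, and TRAV3-3 had only 1674 reads over all libraries. Among the 5' segments the log2 differences (edgeR) were 3.78 for TRAJ48, 3.49 for TRAJ42, 3.46 for TRAJ49 and 2.86 for TRAJ43. Among the 3' segments they were -5.56 for TRAJ9, -5.47 for TRAJ12, -5.36 for TRAJ13, -2.78 for TRAJ7 and -2.68 for TRAJ21. In reads, TRAJ12 was joined 9 times by TRAV3-3 and 405 times by TRAV3D-3 with TRAV3N-3, and TRAJ9 4 and 324 times. In the other direction, TRAJ52 was joined in 26 reads by TRAV3-3 and in 0 by the pair. Of the middle segments, TRAJ37 was higher in TRAV3-3 (2.89), while TRAJ30 differed by -0.08 (adjusted p = 0.844). With TMM factors or DESeq2 the differences of TRAJ37 and TRAJ43 fell as far as 1.71 and 1.73, and with DESeq2 those of TRAJ7 and TRAJ21 were -4.22 and -4.05. The 5' list has 13 and the 3' list 14 segments with TRAV3 reads, and those not tested did not pass the filter. With each clonotype counted once only 4 J segments were abundant enough to test, and 2 passed.

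**Figure D3:**
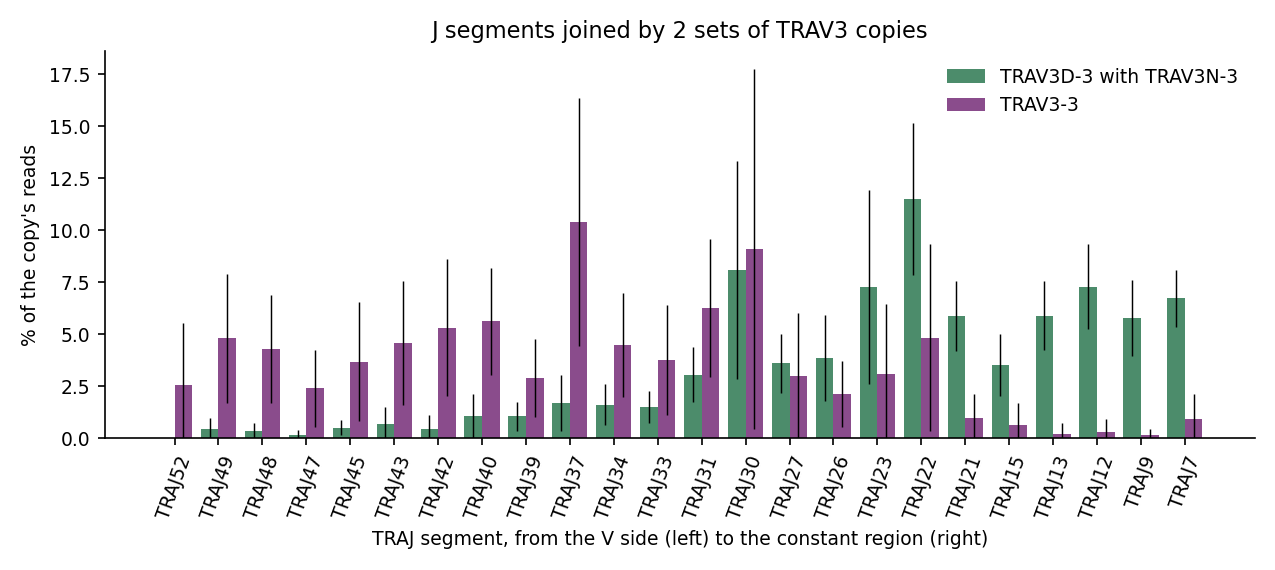
Bars give the mean percent of reads of TRAV3D-3 with TRAV3N-3 (green) and of TRAV3-3 (purple) that joined each of 24 J segments, ordered from the V side to the constant region, with SD over 12 libraries of both cell types (cut off at 0). Purple bars are the taller at the left, as for TRAJ48 and TRAJ42, and green bars at the right, as for TRAJ12 and TRAJ9.

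Within the family, TRAJ22 (10.01% of TRAV3 reads on average over 12 libraries), TRAJ30 (8.35%), TRAJ23 (6.38%), TRAJ12 (5.80%) and TRAJ7 (5.43%) were the most used of 44 J segments. Of 25 tested between cell types, 8 passed (32%), 3 higher in CD8SP (12%) and 5 lower (20%).

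TRAJ30 had the largest difference. It took 4.32%, 2.28% and 4.72% of TRAV3 reads in WT CD4SP and 3.79%, 3.01% and 0.372% in Chrna9-/- CD4SP, against 15.7%, 12.3% and 14.9% in WT CD8SP and 13.1%, 12.3% and 13.5% in Chrna9-/- CD8SP. The groups did not overlap, and the log2 difference was 2.14 (SE 0.237, adjusted p = 6.03e-14, edgeR), or 1.36 with each clonotype counted once. Much of it was carried by recurrent CDR3 sequences described below. Of 736 TRAJ30 reads in CD8SP, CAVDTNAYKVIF held 356 and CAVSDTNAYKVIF 92, and of 62 in CD4SP they held 8 and 10. TRAJ26 rose from 2.13% ± 1.42 to 5.03% ± 0.694 (1.24) and TRAJ22 from 7.27% ± 1.82 to 12.7% ± 1.14 (0.85).

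TRAJ23 went the other way. It took 11.4%, 8.47% and 8.15% of TRAV3 reads in WT CD4SP and 9.80%, 13.3% and 8.55% in Chrna9-/- CD4SP, against 3.799%, 3.73% and 2.39% in WT CD8SP and 2.54%, 2.23% and 2.18% in Chrna9-/- CD8SP. Again the cell types did not overlap (log2 difference -1.83, SE 0.224, adjusted p = 3.61e-12, edgeR). TRAJ37 fell from 5.21% ± 1.10 to 1.92% ± 0.794 (-1.46, or -0.97 with each clonotype counted once) and TRAJ27 from 4.73% ± 1.09 to 2.25% ± 0.699 (-1.08). TRAJ18 was at -1.24 and TRAJ6 at -1.17 (edgeR), and in no CD8SP library did they exceed 1.66% and 1.76% of TRAV3 reads. TRAJ18, TRAJ6 and TRAJ37 passed the filter on low counts through their CD4SP reads, where they are high. Nothing is read from their calls. TRAJ18 lost its call with TMM factors and without any 1 of Chrna9-/- mouse 2 and the 3 WT mice, and TRAJ6 with TMM factors and without any 1 of the 6 mice (adjusted p up to 0.311 and 0.197 over their alternatives).

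Of the 5 most used segments, TRAJ12 (6.34% ± 1.49 in CD4SP, 5.27% ± 1.39 in CD8SP) and TRAJ7 (6.18% ± 0.822 and 4.68% ± 0.559) missed the threshold (edgeR adjusted p = 0.486 and 0.196).

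**Figure D4:**
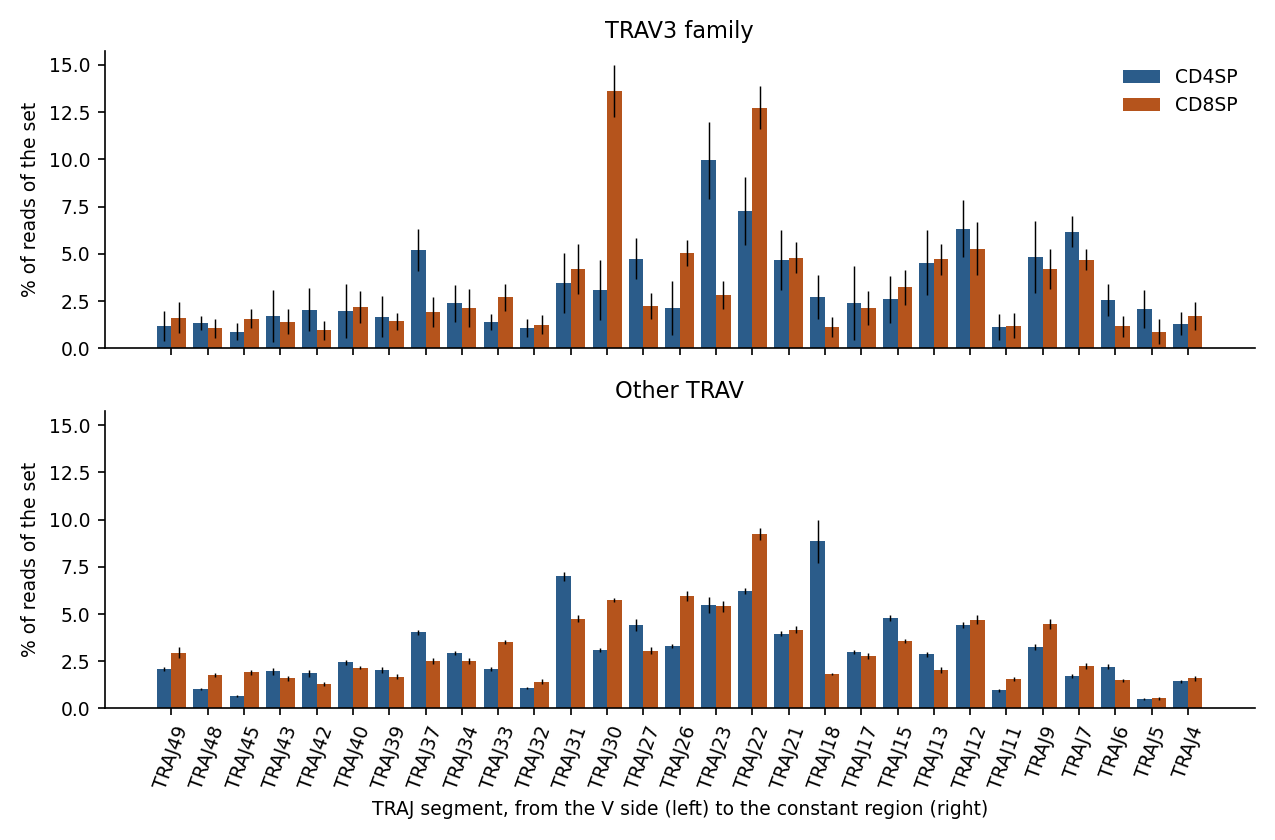
Bars give the mean percent of reads joined to each J segment with at least 1% of TRAV3 reads, in CD4SP (blue) and CD8SP (orange), with SD over 6 libraries; the upper panel is the TRAV3 family, the lower panel all other TRAV. In TRAV3, TRAJ30 goes from 3.08% to 13.6% and TRAJ23 from 9.95% to 2.81%, while in other TRAV TRAJ30 goes from 3.10% to 5.76% and TRAJ23 from 5.47% to 5.41%.

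Set against the other TRAV families of the same libraries, 17 of 43 J segments differed (39.5%), 6 higher in TRAV3 (14%) and 11 lower (25.6%). TRAJ7 made up 5.43% of TRAV3 reads and 1.98% of other TRAV reads (log2 difference 1.45, adjusted p = 1.78e-11, edgeR), and TRAJ5 1.48% and 0.518% (1.34). TRAJ13 (0.91), TRAJ30 (0.61) and TRAJ12 (0.33) were also higher. The calls for TRAJ13 and TRAJ30 were lost with each clonotype counted once (adjusted p = 0.463 and 0.117). That for TRAJ12 was lost without the invariant NKT chain (0.0559) and without any 1 of Chrna9-/- mice 1 and 2 and WT mouse 3 (up to 0.16).

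TRAJ49 (-0.85), TRAJ31 (-0.61), TRAJ15 (-0.52) and TRAJ33 (-0.50) were lower in TRAV3, those of at least 1% of the family. With each clonotype counted once TRAJ31 was at -0.31, and TRAJ15 and TRAJ33 lost the call (adjusted p = 0.463 and 0.458), and TRAJ33 also with TMM factors (0.0724) and without Chrna9-/- mouse 2 (0.0751). TRAJ18, the J segment of the invariant NKT chain, was lower by -1.27, but by -0.25 without that chain (adjusted p = 0.358) and 0.01 with each clonotype counted once. By position, 0 of 13 segments of the 5' list were higher and 6 lower in TRAV3 (median -0.84), and of 14 segments of the 3' list 4 were higher and 2 lower (median -0.06), with a median of -0.29 over all 43. In shares of reads, 5' J segments made up 10.2% of TRAV3 and 15.8% of other TRAV without the invariant chain, and 3' segments 39.6% and 34.0% (each in 6 of 6 mice, exact sign-flip permutation test, adjusted p = 0.0375 over 12 measures). The copies went opposite ways. TRAV3D-3 with TRAV3N-3 had 3.14% and 49.6%, while TRAV3-3, with 35.2% and 5.26%, lay on the other side of other TRAV. In mean share TRAV3-3 also lay there for TRAJ7 (0.953%), TRAJ12 (0.314%), TRAJ13 (0.225%), TRAJ49 (4.82%), TRAJ31 (6.27%) and TRAJ33 (3.76%). It did not for TRAJ30 (9.09%) and TRAJ15 (0.624%). Single copies were not tested against other TRAV.

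The change of J use between cell types also differed between TRAV3 and the other families for 3 of 43 segments (6.98%), 1 with a more positive (2.33%) and 2 with a more negative change in TRAV3 (4.65%). For TRAJ23 the interaction was -1.84 (SE 0.225, adjusted p = 1.29e-07, edgeR): this segment fell within TRAV3 and moved from 5.47% to 5.41% elsewhere, with an interaction of -1.22 with each clonotype counted once. For TRAJ30 it was 1.25 (SE 0.260, adjusted p = 7.61e-04), with a rise in TRAV3 larger than that from 3.10% to 5.76% in other families, and it missed the threshold with each clonotype counted once (0.72, adjusted p = 0.0699). For TRAJ7 it was -0.81 (adjusted p = 0.0275), and 7 of 12 alternatives lost that call.

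Residues at the middle of CDR3, which lie over the peptide, were counted from 2 before to 2 after the central residue. Within TRAV3, 23 of 51 residue and position pairs differed between cell types (45.1%), 13 higher in CD8SP (25.5%) and 10 lower (19.6%). The filter on low counts can pass a pair through 1 cell type alone, so nothing is read from these counts. The largest rises were glutamine at +2 (1.06), tyrosine at 0 (1.03), alanine at 0 (1.02), lysine at +2 (0.98) and tryptophan at +2 (0.86). The largest falls were valine at +1 (-1.43), glutamine at +1 (-1.33), glycine at +2 (-1.28), valine at 0 (-1.26) and threonine at +1 (-1.12). Glycine at +2 went from 26.0% ± 2.13 to 10.7% ± 2.04 of TRAV3 reads (adjusted p = 1.74e-22, edgeR). The change was also tested against that in other TRAV (edgeR). Glutamine at +2, tyrosine at 0, tryptophan at +2, valine at 0 and threonine at +1 were not called there (adjusted p from 0.0561 to 0.585). Alanine at 0, lysine at +2, valine and glutamine at +1 and glycine at +2 were called.

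The J segments behind these residues differed in how far 1 of them dominated. TRAJ30 joins supplied 58.1% of reads with alanine at 0 and 42.8% of those with lysine at +2, TRAJ22 supplied 99.9% of those with tryptophan at +2, and TRAJ26 43.3% of those with glutamine at +2. TRAJ23 supplied 71.4% of reads with glutamine at +1 and 26.7% of those with glycine at +2, TRAJ26 44.6% of those with tyrosine at 0 and TRAJ37 33.3% of those with threonine at +1. The TRAJ30 sequence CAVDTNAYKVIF, with 364 TRAV3 reads over both cell types, has alanine at 0 and lysine at +2. The rise of alanine at 0 was not called with each clonotype counted once (0.37, adjusted p = 0.134). Counted so, lysine at +2 was at 0.51, glycine at +2 at -0.85 and glutamine at +1 at -0.85. The calls for valine rested on few reads, 88.0% (at +1) and 93.1% (at 0) of them from TRAJ5, and were lost without any 1 of several mice (adjusted p up to 0.0978 and 0.298). In CD8SP valine took 0.926% of TRAV3 reads at +1 and 0.703% at 0 on average. Both passed the filter on low counts through their CD4SP reads, where they are high, so nothing is read from these calls.

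Against other TRAV, 34 of 88 residue and position pairs differed (38.6%), 12 higher in TRAV3 (13.6%) and 22 lower (25%). Valine at 0 (1.33) and +1 (1.13), alanine at -2 (0.81), tryptophan at +2 (0.65) and tyrosine at -1 (0.59) were higher. Arginine at -2 (-1.70), leucine at +2 (-1.59), serine at +2 (-1.21), threonine at 0 (-1.01) and methionine at -2 (-0.91) were lower. With each clonotype counted once, arginine at -2 was at -0.89 and methionine at -2 at -0.57. Without the invariant NKT chain, which carries arginine at -2, the arginine difference was -1.22, and arginine there made up 13.2% of other TRAV reads in CD4SP and 5.06% in CD8SP with the chain. The leucine difference was -0.52 without the invariant NKT chain (adjusted p = 0.0667), which carries leucine there, and -0.29 with each clonotype counted once (adjusted p = 0.274). Tryptophan at +2 also missed the threshold with each clonotype counted once (0.21, adjusted p = 0.26).

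TRAV3 joins held fewer added and deleted bases than those of other TRAV without the invariant chain. Their CDR3 held 13.22 residues against 13.38, and 46.4% of reads against 36.3% had no added nucleotide, with 1.52 against 1.81 added nucleotides a join. Fewer bases were deleted from V (1.62 against 1.88) and from J (2.15 against 2.51). Each of these 5 differences had the same direction in 6 of 6 mice (exact two-sided sign-flip permutation test, adjusted p = 0.0375 over 12 measures).

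Between the cell types, TRAV3 CDR3 were shorter in CD8SP (13.15 ± 0.0640 residues) than in CD4SP (13.30 ± 0.0300), by 0.147 in the mean and in 6 of 6 mice. In the other families they were longer in CD8SP, by 0.204 (adjusted p of the difference between families 0.075, exact test, 6 of 6 mice). The mean net charge of TRAV3 CDR3 was 0.513 ± 0.0365 in CD8SP and 0.800 ± 0.0548 in CD4SP, V deletions were 1.72 and 1.53 bases, and the share of clonotypes seen in 1 read was 35.9% and 52.2%. Each held in 6 of 6 mice, at the smallest p the design allows (0.03125, exact), and each missed the threshold after adjustment over 14 measures (0.0547). Charge changed by -0.287 in TRAV3 and -0.322 in the other families (adjusted p of the difference 0.273, exact test). For clonotypes of 1 read the changes were -16.3 and -13.5 points (0.161), and for V deletions 0.191 and -0.0561 bases (0.075). The cell types also differed in sorted cells and in TRAV3 reads a library, and their part in these measures was not tested.

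Of 2086 distinct TRAV3 amino acid clonotypes, 1626 were found in 1 library and 29 in at least 6, and these 29 held 1858 reads (25.0%). The 4 clonotypes of highest mean share, and a TRAJ7 clonotype without CD4SP reads, are shown by nucleotide sequence because several of the main forms were joins without added bases. Lower case marks the bases matched to V and capitals the rest of CDR3.
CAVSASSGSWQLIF with TRAJ22: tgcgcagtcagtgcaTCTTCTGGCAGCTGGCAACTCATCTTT
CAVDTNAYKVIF with TRAJ30: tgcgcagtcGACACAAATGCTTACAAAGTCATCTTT
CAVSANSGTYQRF with TRAJ13: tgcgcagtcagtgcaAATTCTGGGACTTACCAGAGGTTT
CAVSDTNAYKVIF with TRAJ30: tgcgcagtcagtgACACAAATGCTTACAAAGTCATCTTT
CAVSADYSNNRLTL with TRAJ7: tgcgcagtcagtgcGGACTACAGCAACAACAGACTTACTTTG
The first form made up 94.6% of reads of its clonotype, the third 100% and the fourth 97.1%; each has 0 added bases, and V and J share 4, 4 and 2 of them at the join. The TRAJ30 form of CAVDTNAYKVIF made up 54.1% of that clonotype, and 37.4% was a form with 1 V base fewer. The form of CAVSADYSNNRLTL made up 58.1%.

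The clonotype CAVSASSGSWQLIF with TRAJ22 was found in 12 of 12 libraries. It had 10, 11 and 15 reads in WT CD4SP, 12, 17 and 15 in Chrna9-/- CD4SP, 33, 55 and 52 in WT CD8SP and 59, 53 and 59 in Chrna9-/- CD8SP. Scaled to library size it was 0.0531% ± 0.0144 of productive reads in CD4SP and 0.165% ± 0.0165 in CD8SP, with no overlap (log2 difference 1.66, SE 0.349, adjusted p = 9.08e-05, edgeR over 426 clonotypes of all TRAV). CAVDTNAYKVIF with TRAJ30 was found mainly in CD8SP libraries, with 44, 57 and 72 reads in WT and 68, 50 and 65 in Chrna9-/- CD8SP against 0, 2 and 0 in WT and 6, 0 and 0 in Chrna9-/- CD4SP. It made up 6.55% of TRAV3 reads in CD8SP.

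The other TRAV3 clonotypes that passed the filter on low counts did so through their CD8SP reads, so their reads are given without a test. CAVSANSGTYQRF with TRAJ13 had 46 CD4SP and 125 CD8SP reads. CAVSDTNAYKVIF with TRAJ30 had 10 and 92, with only 1 of the CD8SP reads in WT replicate 2, and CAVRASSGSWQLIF with TRAJ22 had 2 and 61. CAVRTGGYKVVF with TRAJ12, the fifth by mean share, had 20 and 45 reads and did not pass the filter.

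CAVSADYSNNRLTL with TRAJ7 had 0 reads in the 6 CD4SP libraries, which allows a share of up to 0.00194% (counting error only), and 62 in CD8SP. It was picked for having no CD4SP read and passed the filter through its CD8SP reads, so no fold or test is given. Most of its CD8SP reads were in Chrna9-/- libraries. Over all TRAV, 233 of 426 clonotypes passed (54.7%), 116 of them higher in CD8SP (27.2%). Only 6 TRAV3 clonotypes passed the filter, and all 6 were higher in CD8SP. The filter favours clonotypes that are high in 1 cell type, and the family as a whole is higher there, so nothing is read from that count. The TRAJ37 clonotype of highest mean share, not tested and picked out after its values were seen, had 37 CD4SP reads in 6 libraries and 9 CD8SP reads in 3.

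**Figure D5:**
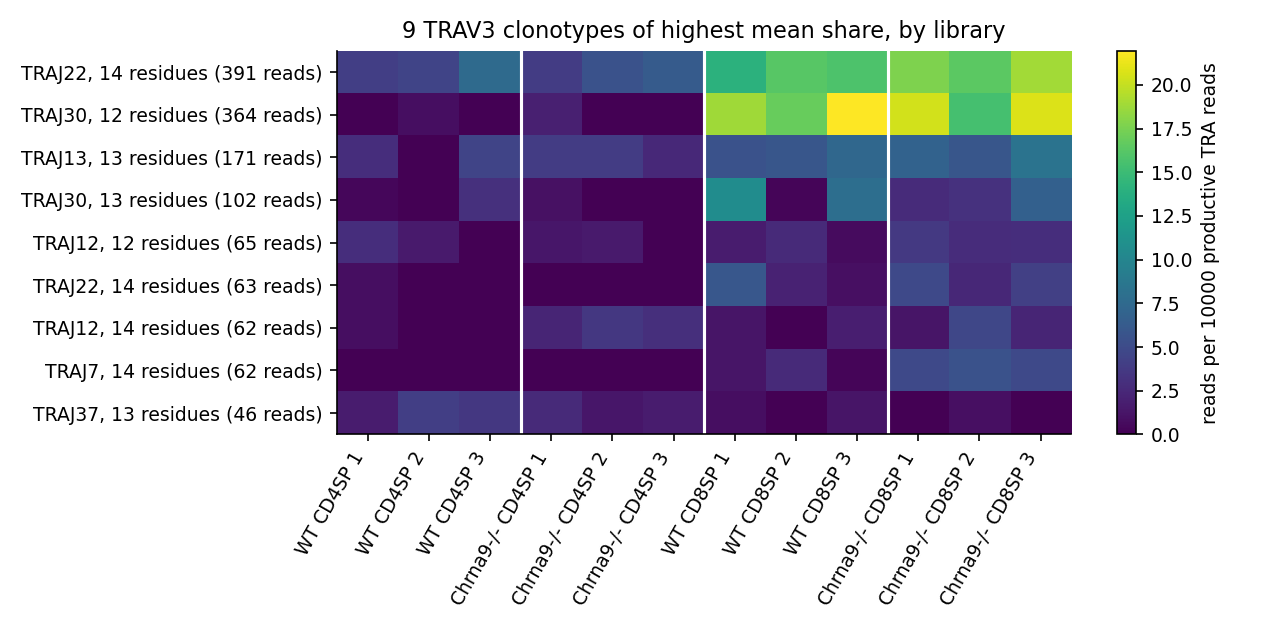
Colour gives reads per 10000 productive alpha-chain reads of 9 TRAV3 clonotypes (rows, named by J segment, CDR3 length and total reads) in each of 12 libraries (columns, white lines between groups). The TRAJ30 clonotype of 364 reads is bright in the 6 CD8SP libraries and dark in CD4SP, and the TRAJ7 clonotype of 62 reads has no CD4SP read.

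The genotype comparison, the study's own question, gave no TRAV3 difference past the threshold. In CD4SP the family share was 1.25% ± 0.0738 in WT and 1.30% ± 0.162 in Chrna9-/- mice (SD, n = 3 each), and the ranges overlapped (log2 difference knockout minus WT 0.06, SE 0.098, adjusted p = 0.865, edgeR). In that comparison 1 of 20 families passed (5%). In CD8SP it was 2.81% ± 0.124 in WT and 3.03% ± 0.101 in Chrna9-/- mice (0.11, SE 0.079, adjusted p = 0.460), with 0 of 20 families past the threshold (0%; 1 at an unadjusted p under 0.05). With TMM factors the CD8SP difference was 0.21 (adjusted p = 0.031), with 5 families called. DESeq2 called 1 family in that comparison. The interaction of genotype and cell type was 0.05 (SE 0.117, adjusted p = 0.934), with 0 of 20 called (0%; 2 at an unadjusted p under 0.05, and 0 with DESeq2).

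By copy, TRAV3D-3 with TRAV3N-3 differed by 0.07 in CD4SP and 0.15 in CD8SP, and TRAV3-3 by 0.09 and -0.06 (edgeR adjusted p from 0.796 to 0.989). Of the 125 segments, 2 passed in CD4SP (1.6%) and 0 in CD8SP (0%; 6 at an unadjusted p under 0.05). Inside the family, 0 of 25 J segments and 0 of 51 residues passed in either cell type (at an unadjusted p under 0.05, 2 J segments in CD4SP and 1 in CD8SP, and 3 and 2 residues). Among recurrent clonotypes 0 of 426 passed in either cell type (9 in CD4SP and 13 in CD8SP at an unadjusted p under 0.05, and 0 adjusted with DESeq2). CAVSADYSNNRLTL had 49 reads in Chrna9-/- and 13 in WT CD8SP (16, 18 and 15 against 3, 9 and 1), and it was not called. It passed the filter through the Chrna9-/- CD8SP group, where it was high, so nothing is read from this difference. None of the 14 CDR3 and clone measures reached an adjusted p under 0.808 in CD4SP or 0.875 in CD8SP (exact sign-flip test), and 3 pairs cannot give an exact p below 0.25.

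Out-of-frame and stop joins, were compared between genotypes after their values were seen. In CD8SP all 3 Chrna9-/- libraries (6.83% to 7.01%) lay above all 3 WT libraries (4.84% to 5.85%). The log2 difference was 0.36 (SE 0.137, adjusted p = 0.0965, edgeR), and 0 of 19 families passed (0%; 3 at an unadjusted p under 0.05, also 3 with DESeq2). Without WT mouse 2 it passed (0.41, adjusted p = 0.0428), and over its 11 alternatives the adjusted p ran up to 0.735, with each clonotype counted once. In CD4SP the difference was -0.13 (adjusted p = 0.810), and the interaction 0.49 (SE 0.232, adjusted p = 0.366).

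The segments whose share followed that of TRAV3 most closely over 12 libraries were TRAV16N (Pearson r of log2 shares 0.99), TRAV16D-DV11 (0.98) and TRAV12D-3 (0.97). The points share the libraries and their totals, and hold both cell types. Within CD4SP r was 0.21, 0.76 and 0.28, and within CD8SP 0.65, -0.61 and -0.36, over 6 libraries each, given as a description.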

How the data were processed

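The deposited values were counts of reads per clonotype, per the file headers, with a deposited fraction of the file's reads that was not used in any test. MiXCR and VDJtools are named in the design text and mm10 in the submitters' processing notes; their versions and filters are not given in the sources used here. Reads without a covered CDR3 were left out (1.96% to 3.15% a library). Clonotypes were assigned by best V hit with the allele dropped. Tables of families, segments, J segments, residues and clonotypes were tested with edgeR 4.0.16 in R 4.3.3 (quasi-likelihood, filterByExpr, Benjamini-Hochberg at 0.05). The library size was the total productive alpha-chain reads without scaling, and for J segments and residues the reads of the set. CD4SP and CD8SP libraries of the same genotype and number were taken as 1 mouse, which was a block in cell type contrasts. Genotype contrasts had the replicate number as a block, since the design text names pairs. Deviations of same-numbered libraries of a cell type correlated from -0.36 to 0.12, and those of libraries taken as 1 mouse from -0.18 to 0.40, so the blocks rest on that text and on the numbers alone. Contrasts of TRAV3 with other TRAV, and between its copies, had the library as a block. CDR3 measures were compared by exact sign-flip tests. Alternatives included DESeq2 1.42.0, TMM factors, no filter, each clonotype counted once and leaving out each mouse. Other steps ran in Python 3.11.15. The tests were checked on simulated counts.

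The text names every TRAV3 copy, the 5 J segments and 5 clonotypes of highest mean share, up to 5 features per direction past the threshold (J segments and residues of at least 1% of the family), and the 3 nearest families and segments. Members and lists were chosen with earlier results of these data known.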

Additional observations from a re-analysis of the deposited data

Results flagged for a closer look

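The change between CD4SP and CD8SP in TRAV3 differed from that in the other TRAV families for 3 of 43 J segments (6.98%), by a test of the difference itself (edgeR). It was 1.25 on the log2 scale for TRAJ30, -1.84 for TRAJ23 and -0.81 for TRAJ7. The same test called 17 of 88 residue and position pairs (19.3%). Of the named ones, the change was more positive in TRAV3 for leucine at +2 (1.81), arginine at -2 (1.10), alanine at 0 (1.01), alanine at +1 (0.97) and arginine at +2 (0.84). It was more negative for valine at +1 (-1.61), glutamine at +1 (-1.44), aspartate at -1 (-1.24), tyrosine at -1 (-1.22) and glycine at -2 (-1.11). TRAJ23 joins made up 71.4% of TRAV3 reads with glutamine at +1 and 35.4% of those with tyrosine at -1, and TRAJ30 58.1% of those with alanine at 0 and 41.2% of those with alanine at +1.

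Without the invariant NKT chain the values were -0.29 for leucine at +2, 0.18 for arginine at -2 (adjusted p = 0.744) and 0.14 for alanine at +1 (adjusted p = 0.6). That chain is at 5.26% to 8.49% of productive reads in CD4SP and 0.0495% to 0.0983% in CD8SP libraries. With each clonotype counted once the call for alanine at 0 was lost (0.42, adjusted p = 0.239), and glutamine at +1 was at -0.89 and glycine at -2 at -0.61. The call for valine at +1 was lost in 9 of its 12 alternatives, that for aspartate at -1 in 4 of 12 and that for arginine at +2 in 2 of 12 (adjusted p up to 0.299, 0.277 and 0.219).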

How the results depend on the processing

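The higher share of TRAV3 in CD8SP kept its direction and call under all 18 alternatives (0.93 to 1.26). Knockout against WT in CD8SP passed the threshold with TMM factors (0.21). Without clonotypes tied between V segments the genotype by cell type interaction was -0.0726. Leaving out 1 mouse at a time gave -0.0188 to 0.10 for knockout against WT in CD4SP, -0.0246 to 0.12 for TRAV3D-3 and -0.0634 to 0.22 for TRAV3-3 there, -0.16 to 0.0629 for TRAV3-3 in CD8SP, and -0.0498 to 0.13 for the interaction. Reversals came without Chrna9-/- mouse 1 (family and TRAV3D-3 in CD4SP), WT mouse 1 (TRAV3-3 in CD4SP), mouse 2 of either genotype (TRAV3-3 in CD8SP) and Chrna9-/- mouse 3 (interaction); none of these was called. CDR3 measures with 1 direction in every pair went from 3 to between 4 and 8 in CD4SP and from 4 to between 7 and 8 in CD8SP, as 2 pairs are easier to match than 3.

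With each clonotype counted once, called J segments were 2 between copies, 10 in TRAV3 against other TRAV and 1 in its interaction with cell type, and called residues were 14 within TRAV3, 15 against other TRAV and 6 in the interaction. There TRAJ18 against other TRAV was 0.0087, and the interaction for leucine at +2 was -0.24 (-0.29 without the invariant NKT chain). Without a filter 32 J segments were called between copies. DESeq2 called 5 J segments in the interaction with cell type. The fit of that interaction without the library block called 14. Without the mouse block the family difference between cell types was 1.19. Without the replicate block knockout against WT was 0.06 in CD4SP and 0.11 in CD8SP. No other count moved past 1.5 times without its block. The causes were not tested, except that fewer J segments passed the filter between copies with each clonotype counted once (4). Depth limits TRAV3-1, TRAV3-4 and single clonotypes.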

Other observations

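The recurrent TRAV3 CDR3 also occurred with other V families, mainly TRAV7, which was looked at after the values were seen. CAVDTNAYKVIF with TRAJ30 had 8 CD4SP and 356 CD8SP reads with TRAV3, and 66 and 246 with TRAV7 (log2 difference 1.88, adjusted p = 1.24e-04, edgeR). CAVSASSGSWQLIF with TRAJ22 had 80 and 311 reads with TRAV3 and 51 and 55 with TRAV7 (-0.05, adjusted p = 0.953). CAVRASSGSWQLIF with TRAJ22 had 2 and 61 reads with TRAV3 and 41 and 41 with TRAV7 (-0.52, adjusted p = 0.603), and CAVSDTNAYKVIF with TRAJ30 had 10 and 92 with TRAV3 and 40 and 90 with TRAV7 (0.77, adjusted p = 0.240). The TRAJ37 clonotype of highest mean share had 37 and 9 reads with TRAV3, and the same CDR3 and J had 32 and 25 with TRAV7. The difference between the V families was not tested for any of them.

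Out-of-frame and stop joins of TRAV3 used 3' J segments in 47.6% ± 7.43 of reads in CD4SP and 41.6% ± 4.04 in CD8SP (SD, n = 6), against 34.8% ± 0.712 and 33.6% ± 1.51 in those of other TRAV. Productive TRAV3 joins used them in 42.1% ± 1.53 and 37.0% ± 3.41.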
